A study of Mus musculus with 4 samples.

Results

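The mucins and goblet cell genes described here are Muc5b, Muc1, Muc4, Muc16, Tff2, Tff1, Gp2, Dmbt1 and Spdef. They were taken by gene symbol from the count tables of all 4 libraries, and all 9 were found among the 30907 measured features. Each was read per library and per class of tracheal cell, and the classes were gated on marker genes that include none of the 9.

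Airway mucus is a gel of very large, heavily O-glycosylated secreted mucins, and in mouse airways Muc5b is the gel-forming mucin made at baseline, mainly by secretory cells. Muc1, Muc4 and Muc16 are mucins anchored in the apical membrane, and MUC1, MUC4 and MUC16 line cilia and microvilli beneath the mucus in human airway epithelium. Tff1 and Tff2 are small trefoil peptides secreted with mucus, Gp2 is a GPI-anchored glycoprotein also known from intestinal M cells, Dmbt1 is a secreted scavenger receptor protein that binds microbes and mucins, and Spdef is a transcription factor needed for goblet cell differentiation.

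The tracheas came from 2 adult wild-type recipients, 1 per graft, so each group below is 1 library of 1 animal. The iBC recipient, labelled 129 X1/S1, received basal cells derived from mouse embryonic stem cells (iBCs) and was analysed 192 days later, and the primary BC recipient, labelled C57BL/6, received primary basal cells (BCs) and was analysed after 69 days. Both had been given 2% polidocanol, a detergent that strips the tracheal epithelium, into the trachea 5 hours before 6000000 donor cells were instilled. From each pronase-digested trachea, live Calcein Blue+ cells were sorted into donor-derived (GFP+) and endogenous (GFP-) cells and profiled on the 10x Chromium system. The endogenous cells are therefore host cells of the same injured and transplanted trachea, and a control trachea without injury is named in the labels and was not analysed here. Graft type, recipient strain and time after transplantation differ together between the recipients and cannot be told apart. With 1 library per group no comparison could be tested, and the intervals below cover counting error only.

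After filtering, 1576 iBC donor-derived, 1800 iBC endogenous, 1816 primary donor-derived and 1350 primary endogenous cells were kept. In the same order, the gates gave 678, 738, 1067 and 596 basal-gated cells, 488, 599, 419 and 361 secretory-gated cells and 267, 359, 166 and 199 ciliated-gated cells. The libraries held between 21504563 and 26625123 UMIs (unique molecular identifiers, 1 per captured transcript), and 2 barcode sequences occurred in 2 libraries, which touches 4 of the 6542 kept cells. The EGFP transcript was at 56.5 to 77.9 CPM (UMIs of a gene per 1000000 UMIs of all genes in the class) in the 3 donor-derived classes of the iBC recipient, against 0 to 0.467 CPM in the endogenous ones. In the primary BC recipient it was at 491 to 1401 CPM in donor-derived classes, against 0.247 to 15.3 CPM in endogenous classes, with the highest endogenous value in secretory-gated cells. The cells of the 4 libraries also lay in different clusters: 97.3% of the donor-derived secretory-gated cells of the iBC recipient were in cluster 5 of 18, 89.1% of its endogenous ones in cluster 3, and those of the primary BC recipient in clusters 2 and 6. Ciliated-gated cells likewise lay in cluster 12 (97.8%) and cluster 9 (99.2%) in the iBC recipient, and in cluster 10 (94.0% and 95.0%) in the primary BC recipient.

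Promoter sequences, each 300 bases from 250 before to 50 after the start of the gene, were available for 5 of the 9 genes (RefSeq, GRCm38.p6). They are shown for the 3 membrane mucins, because Muc16 and Muc4 differed together in ciliated-gated cells while Muc1 did not, and for Gp2, a gene that was low in both grafts. Capitals mark the TATA core TATAAA and the RFX core GTTGCC. The Muc16 window lies at chr9:18674554-18674853 on the minus strand, Muc4 at chr16:32735636-32735935 on the plus strand, Muc1 at chr3:89228806-89229105 on the plus strand and Gp2 at chr7:119459223-119459522 on the minus strand.
Muc16: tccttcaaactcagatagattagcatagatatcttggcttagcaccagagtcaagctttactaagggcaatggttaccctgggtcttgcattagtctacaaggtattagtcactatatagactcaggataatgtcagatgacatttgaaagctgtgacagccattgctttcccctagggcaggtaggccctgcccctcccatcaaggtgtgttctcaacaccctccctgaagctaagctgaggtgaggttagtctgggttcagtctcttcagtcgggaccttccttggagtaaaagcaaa
Muc4: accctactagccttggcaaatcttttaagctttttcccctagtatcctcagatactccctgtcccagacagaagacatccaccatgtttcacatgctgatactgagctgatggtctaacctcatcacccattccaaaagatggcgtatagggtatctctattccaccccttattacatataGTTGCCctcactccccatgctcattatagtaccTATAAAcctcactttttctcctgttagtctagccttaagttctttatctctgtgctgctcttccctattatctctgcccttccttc
Muc1: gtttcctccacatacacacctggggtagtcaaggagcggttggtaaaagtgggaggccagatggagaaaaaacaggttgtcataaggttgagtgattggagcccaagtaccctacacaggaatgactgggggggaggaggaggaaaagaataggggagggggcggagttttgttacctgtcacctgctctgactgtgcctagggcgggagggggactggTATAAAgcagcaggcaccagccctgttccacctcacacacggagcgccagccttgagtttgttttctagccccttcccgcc
Gp2: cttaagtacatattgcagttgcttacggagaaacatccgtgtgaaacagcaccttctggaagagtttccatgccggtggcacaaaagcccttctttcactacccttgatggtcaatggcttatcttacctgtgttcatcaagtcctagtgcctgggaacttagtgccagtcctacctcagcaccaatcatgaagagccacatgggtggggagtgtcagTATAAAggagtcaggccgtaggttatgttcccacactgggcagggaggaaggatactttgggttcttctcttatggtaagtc
All motifs were searched on both strands, and no matches overlapped. TATAAA began 31 bases before the start in Muc1, 36 before it in Muc4 and 32 before it in Gp2, and occurred in 13.6% of all 32851 RefSeq mouse promoters of that length. GTTGCC occurred once, 69 bases before the start of Muc4, and in 12.5% of all promoters. Neither motif, nor the forkhead core GTAAACA, which 3.65% of promoters held, occurred in the Muc16 window. That window lies wholly upstream of the annotated Muc16 span, chr9:18495455-18674530, so RefSeq and the gene annotation used below place its start at different bases. A match describes letters in this window and not a bound site.

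In the GRCm38 annotation Muc16 spans chr9:18495455-18674530 (minus strand), Muc4 chr16:32735886-32782391 (plus), Muc1 chr3:89229057-89233381 (plus), Muc5b chr7:141839070-141873084 (plus), Gp2 chr7:119442537-119459285 (minus), Dmbt1 chr7:131032053-131121630 (plus) and Spdef chr17:27714352-27728955 (minus). Tff2 (chr17:31141049-31144282) and Tff1 (chr17:31161395-31165277) are neighbours on the minus strand, 17112 bases apart. The last exons of Muc4 lie opposite those of Muc20, Dmbt1 lies inside the annotated span of Fgfr2 on the other strand, and Tff1 overlaps the antisense gene Gm15318. Whether reads were counted by strand is not given in the sources used here, so reads from these pairs could be mixed. Muc20 was at 0 to 12.1 CPM and Gm15318 at 0 CPM in all 12 class sums, while Fgfr2 was at 9.89 to 160 CPM and highest in basal-gated cells, where Dmbt1 was at 0.259 to 4.06 CPM.

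**Figure D1:**
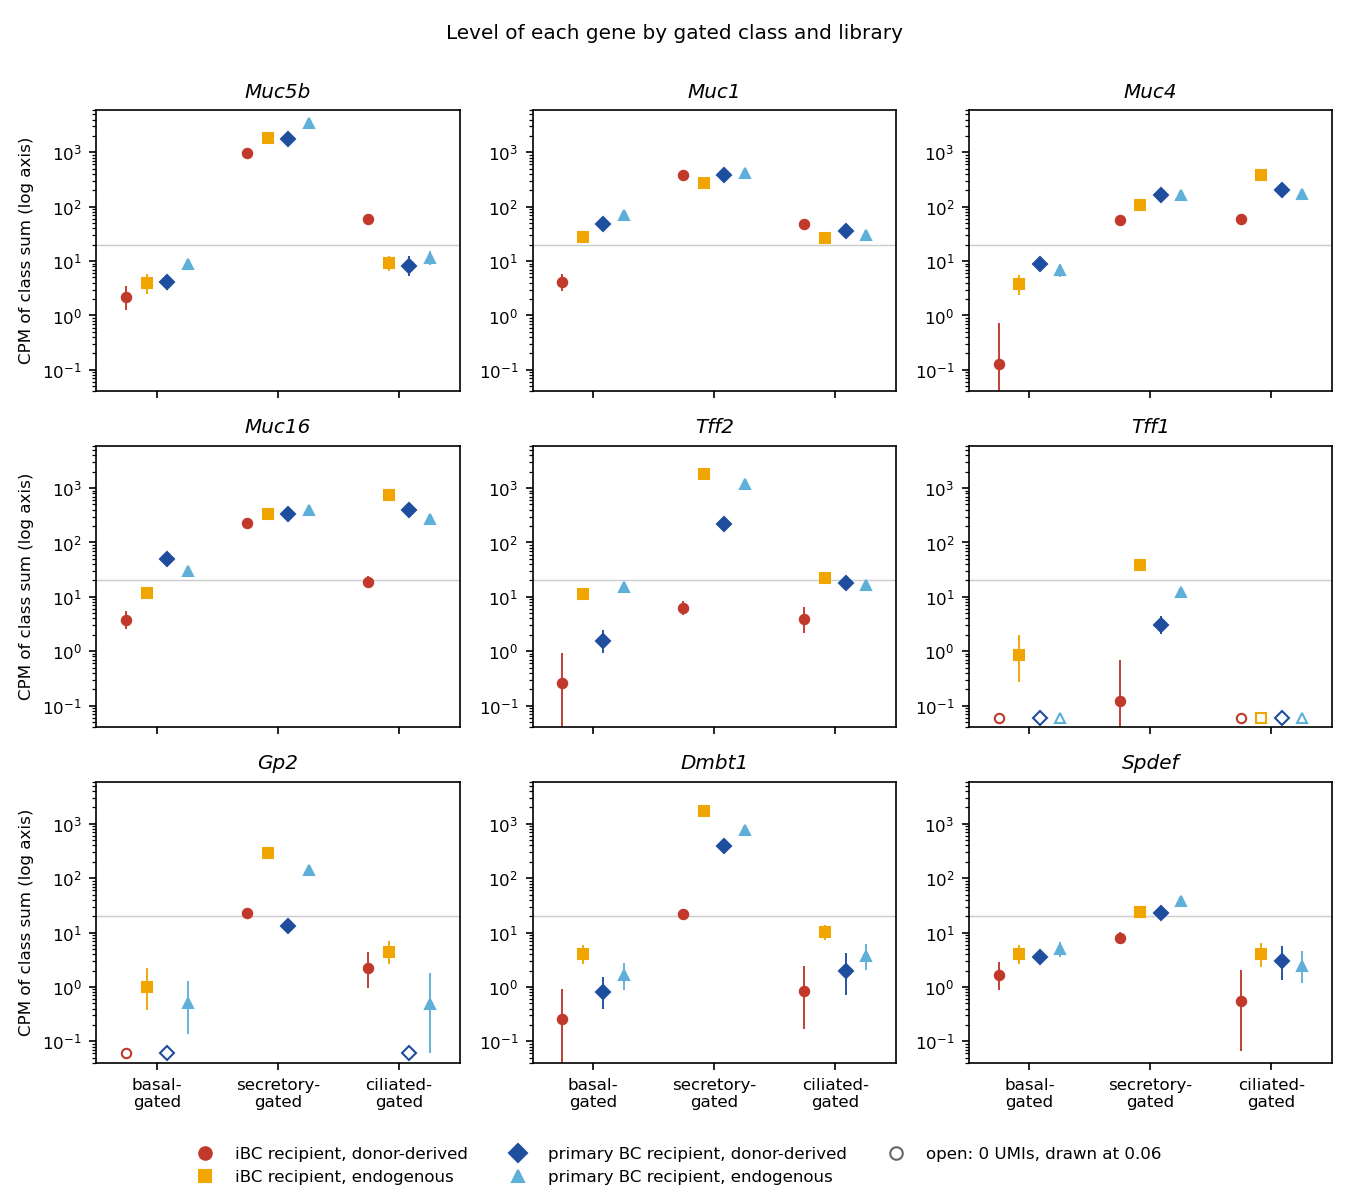
Level of each of the 9 genes in basal-, secretory- and ciliated-gated cells of the 4 libraries, as CPM of the summed UMIs on a log axis, with exact Poisson 95% intervals; open symbols drawn at 0.06 mark 0 UMIs and the grey line is 20 CPM. The secreted products peak in secretory-gated cells, where Tff2 and Dmbt1 of the iBC graft are at 6.28 and 21.5 CPM against 1843 and 1708 CPM in endogenous cells, and Muc16 of the iBC graft is at 18.9 CPM in ciliated-gated cells against 754 CPM.

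The secretory-gated cells carried most transcripts of the secreted products. They held 92.1%, 99.5%, 97.6% and 98.7% of all Muc5b UMIs in iBC donor-derived, iBC endogenous, primary donor-derived and primary endogenous libraries, and at least 96.0% of the Tff2 UMIs in each library other than that of the iBC graft, where 72.9% of only 70 Tff2 UMIs were in them. Muc16 and Muc4 were shared with ciliated-gated cells. Those cells held 2.98% of the Muc16 UMIs in the iBC graft against 49.4% in its endogenous cells, and 23.8% in the primary graft against 21.6% in its endogenous cells.

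Muc5b was present in secretory-gated cells of all 4 libraries and was about 2-fold lower in both grafts. It was at 953 CPM (95% interval 932 to 975) in iBC donor-derived cells, against 1840 CPM (1813 to 1868) in endogenous cells of that trachea. In the primary BC recipient it was at 1724 CPM (1696 to 1752) in donor-derived cells, against 3504 CPM (3465 to 3543) in endogenous cells. The endogenous sum was thus 1.93 times (1.88 to 1.98) the donor-derived sum in the iBC recipient and 2.03 times (1.99 to 2.07) in the primary BC recipient.

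The share of secretory-gated cells with Muc5b differed between the grafts in another way. When every cell was thinned to 5000 UMIs, 79.2% of iBC donor-derived cells held a Muc5b UMI, against 76.6% of endogenous cells, and 50.5% of primary donor-derived cells did, against 70.4% of endogenous cells. Unthinned, the shares were 85.5% against 80.1% and 58.2% against 78.9%, at median depths of 15975 against 15744 UMIs and 19495 against 23017 UMIs per cell. Positive cells of the iBC graft held a median of 15 Muc5b UMIs, against 22 in endogenous cells, while those of the primary graft held 37, against 68. For the background of free RNA, 0 of 23 immune-gated cells of the iBC endogenous library and 8 of 67 of the primary endogenous library held a Muc5b UMI, at median depths of 7798 and 11589 UMIs.

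In the primary BC recipient, low Muc5b shares went with 1 of the clusters that hold secretory-gated cells. Cluster 6 held 31.3% of the donor-derived and 19.4% of the endogenous secretory-gated cells, and Muc5b was there at 10.1 CPM in the graft, against 40.1 CPM in host cells. None of the gate markers was among the 10 leading genes of cluster 6, and as a cluster it was given no class. In cluster 2, which held 66.3% and 74.0%, Muc5b was at 2322 CPM in the graft, against 4324 CPM in host cells, with 83.5% and 92.9% of cells positive. The 9 genes were left out of the genes used for clustering. The gap between clusters is a description, and within cluster 2 the donor-derived level was again lower than the endogenous one.

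The membrane mucin Muc1 was at a like level in secretory-gated cells of both grafts. It was at 383 CPM (370 to 397) in iBC donor-derived cells, against 270 CPM (260 to 281) in endogenous cells, and at 381 CPM (368 to 394) in primary donor-derived cells, against 416 CPM (403 to 430) in endogenous cells. In the iBC recipient Muc1 was 1.42-fold (1.35 to 1.49) higher in donor-derived cells, but the median of all genes there was shifted by 0.32 on the log2 scale in the same direction, which leaves 0.18. Between the grafts the ratio of iBC to primary donor-derived cells was 1.01 (0.958 to 1.06) over the class sums. By cluster, Muc1 was at 388 CPM in cluster 5 of the iBC graft, against 445 CPM in cluster 2 and 175 CPM in cluster 6 of the primary graft.

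Muc4 was lower in secretory-gated cells of the iBC graft and level in the primary graft. Muc4 was at 55.9 CPM (50.8 to 61.3) in iBC donor-derived cells, against 106 CPM (99.5 to 113) in endogenous cells, and at 161 CPM (153 to 170) in the primary graft, as in its endogenous cells. Muc16 was at 226 CPM against 338 CPM in the iBC recipient and at 330 CPM against 400 CPM in the primary BC recipient. The interval of the primary Muc4 ratio ran from 0.930 to 1.08, which leaves room for a small difference of either sign.

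Of the trefoil peptides, Tff2 was far lower in the iBC graft and lower in the primary graft than in host cells. It was at 6.28 CPM (4.67 to 8.25) in secretory-gated cells of the iBC graft, against 1843 CPM (1816 to 1871) in endogenous cells, and at 221 CPM (211 to 231) in the primary graft, against 1189 CPM (1166 to 1212) in endogenous cells. The endogenous level was 294 times (223 to 395) that of the iBC graft and 5.37 times (5.12 to 5.64) that of the primary graft. At 5000 UMIs per cell, 2.29% (1.15 to 4.05) of iBC donor-derived secretory-gated cells held a Tff2 UMI, against 55.8% (51.6 to 59.9) of endogenous cells, and 16.7% (13.3 to 20.7) of primary donor-derived cells did, against 36.6% (31.6 to 41.8) of endogenous cells.

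Tff2 in the iBC graft was low but above the basal-gated cells of the same library. Unthinned, 6.15% of its secretory-gated and 4.49% of its ciliated-gated cells held a Tff2 UMI, against 1 of its 678 basal-gated cells (0.147%), at median depths of 15975, 11869 and 9265 UMIs. The secretory-gated sum was 24.2 times (6.37 to 205) the basal-gated sum, which rests on 2 UMIs. In the 2 endogenous libraries, where Tff2 was at 859 and 457 CPM over all cells against 3.30 CPM in the iBC graft, 1 of 23 and 3 of 67 immune-gated cells held it. In the primary graft, a few cells made up most of the sum: 4 cells held at least 50% of all Tff2 UMIs in that library and the 10 highest held 70.7%, against 13 cells and 44.9% in its endogenous library. In the iBC endogenous library 42 of the 542 cells with a Tff2 UMI held at least 50%, and the 10 highest held 19.6%. Tff2 there was less concentrated than in the libraries of the primary BC recipient, but still came largely from a small part of the cells.

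Tff1 was rare everywhere and followed the order of Tff2. A single Tff1 UMI was found in the 488 secretory-gated cells of the iBC graft, against 362 UMIs (37.9 CPM) in 33 of 599 endogenous cells, of which 1 cell held 204. The primary graft had 27 UMIs (3.08 CPM) in 9 cells, against 109 UMIs (12.2 CPM) in 23 endogenous cells. The ratio of the endogenous to the donor-derived sum in the iBC recipient was 308, with a counting interval of 55.0 to 12204. No ciliated-gated cell of any library held Tff1, which allows up to 0.701 to 0.989 CPM (3 counts of each class total).

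Gp2 was low in both grafts. In secretory-gated cells it was at 22.8 CPM (19.6 to 26.3) in the iBC graft, against 296 CPM (285 to 307) in endogenous cells, and at 13.1 CPM (10.8 to 15.8) in the primary graft, against 142 CPM (134 to 150) in endogenous cells. These are gaps of 13.0 times (11.2 to 15.2) and 10.8 times (8.90 to 13.2). Between the grafts Gp2 was 1.73-fold (1.37 to 2.21) higher in the iBC graft, where 4 cells held at least 50% of its UMIs, against 3 cells in the primary graft.

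Dmbt1 separated the grafts most clearly after Tff2. It was at 21.5 CPM (18.5 to 24.97) in secretory-gated cells of the iBC graft, against 1708 CPM (1682 to 1734) in endogenous cells, and at 386 CPM (373 to 400) in the primary graft, against 765 CPM (747 to 783) in endogenous cells. The endogenous level was 79.3 times (68.3 to 92.6) the donor-derived level in the iBC recipient and 1.98 times (1.90 to 2.06) in the primary BC recipient. At 5000 UMIs, 5.61% of iBC donor-derived cells were positive, against 60.8% of endogenous cells, and 22.5% of primary donor-derived cells, against 38.2% of endogenous cells.

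Spdef was at 8.12 CPM (6.28 to 10.3) in secretory-gated cells of the iBC graft, against 23.8 CPM (20.8 to 27.1) in endogenous cells, and at 22.8 CPM (19.8 to 26.2) in the primary graft, against 37.5 CPM (33.6 to 41.8) in endogenous cells. The endogenous level was 2.93 times (2.22 to 3.91) that of the iBC graft and 1.64 times (1.37 to 1.97) that of the primary graft. None of the immune-gated cells held Spdef, and in secretory-gated cells 10.9%, 27.0%, 28.4% and 41.3% held it in iBC donor-derived, iBC endogenous, primary donor-derived and primary endogenous libraries. Positive cells held a median of 1, 1, 1 and 2 Spdef UMIs in the same order, so this gene was measured close to the limit of detection in every library.

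A gene was called higher or lower when it reached at least 20 CPM in 1 of the 2 class sums and its log2 ratio of CPM plus 5 was at least 2-fold from 0. In secretory-gated cells of the iBC recipient all 9 genes could be compared and 5 were lower in donor-derived cells, where 3.19% of the 5230 genes compared were called lower. They were Tff2 (log2 ratio -7.36), Dmbt1 (-6.01), Gp2 (-3.44), Tff1 (-3.07) and Spdef (-1.13), and none of the 9 was higher, against 5.97% of all genes. Tff1 reached 20 CPM only in the endogenous sum, and 1 cell held 204 of the 367 Tff1 UMIs of that library. Muc5b (-0.95), Muc4 (-0.87), Muc16 (-0.57) and Muc1 (0.50) stayed within 2-fold. The median of the 9 was -1.13, beside 0.32 over all genes compared, and with the TMM scaling, which removes most of that shift, Muc5b (-1.26) and Muc4 (-1.16) also passed 2-fold.

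In secretory-gated cells of the primary BC recipient 8 of the 9 genes could be compared, and 3 were lower in donor-derived cells, where 0.521% of the 5187 genes compared were called lower. They were Gp2 (-3.02), Tff2 (-2.40) and Muc5b (-1.02), and none was higher, against 0.27% of all genes. Dmbt1 (-0.98), Spdef (-0.61), Muc16 (-0.27), Muc1 (-0.13) and Muc4 (0.00) were within 2-fold, and Tff1 was under 20 CPM in both. Muc5b and Dmbt1 lie close to the 2-fold limit on either side of it.

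**Figure D2:**
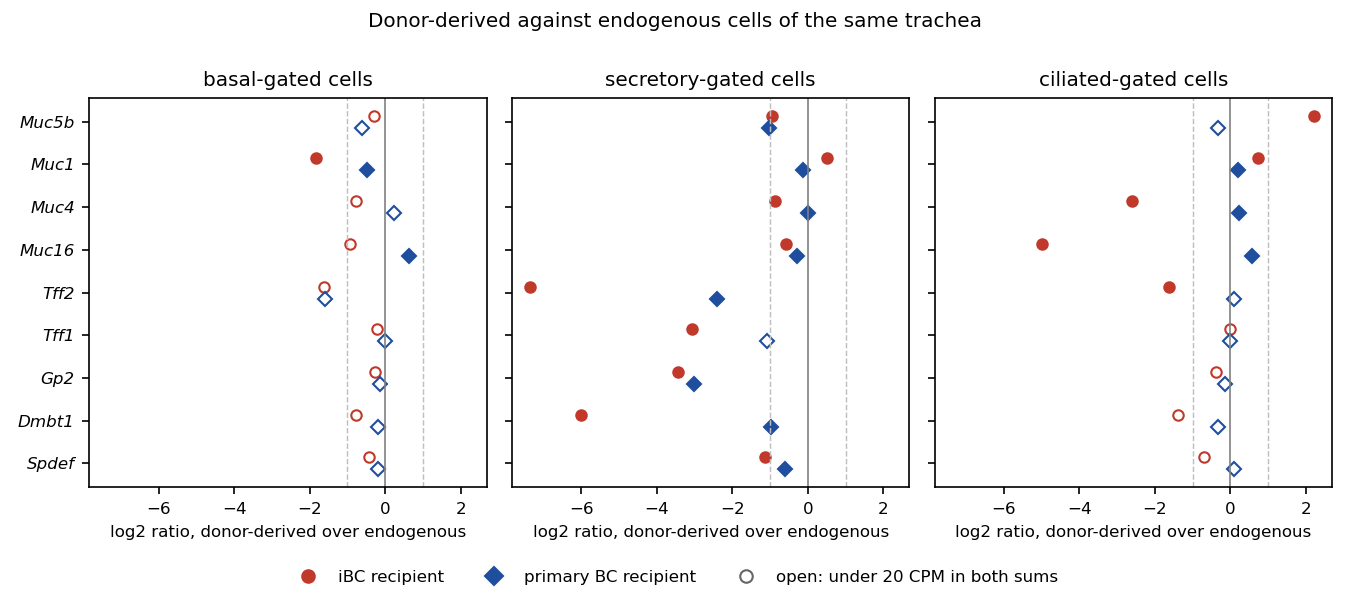
The log2 ratio of CPM plus 5, donor-derived over endogenous, of each gene in the 3 gated classes of the iBC recipient (circles) and the primary BC recipient (diamonds); dashed lines are 2-fold and open symbols are under 20 CPM in both sums. In secretory-gated cells Tff2 stands at -7.36 and -2.40, and in ciliated-gated cells Muc16 stands at -4.99 and 0.58.

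Between donor-derived secretory-gated cells of the 2 grafts, 8 genes could be compared and 4 were lower in the iBC graft, where 6.09% of 5579 genes were called lower. They were Tff2 (-4.33), Dmbt1 (-3.88), Muc4 (-1.45) and Spdef (-1.09), while none was higher, against 5.47% of all genes. Muc5b was not called over the class sums. By cluster it was at 970 CPM in cluster 5 of the iBC graft, against 2322 CPM in cluster 2 and 10.1 CPM in cluster 6 of the primary graft. Between the endogenous cells of the 2 recipients, which share libraries with the comparisons above, Tff1 (1.32), Dmbt1 (1.15) and Gp2 (1.04) were higher in the iBC recipient, where 1.25% of 5022 genes were called higher. None of the 9 was lower there, against 3.39% of all genes. Tff2 (0.63) and Muc5b (-0.93) were within 2-fold, and the median of all genes was -0.24. These calls depended on the gate: Muc5b was past 2-fold lower with the stricter gate (-1.04), Leiden classes (-1.14) and a secretory gate from 3 markers that was chosen after seeing the data (-1.04), and with Leiden classes Dmbt1 (0.97) and Gp2 (0.84) were under 2-fold, leaving Tff1 (1.16). Most Tff1 UMIs of the iBC endogenous library (204 of 367) came from 1 cell, so the Tff1 calls rest largely on that cell.

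Single cells showed how the goblet genes combined. Counting Muc5b, Tff2, Tff1, Gp2, Dmbt1 and Spdef in secretory-gated cells thinned to 5000 UMIs, at least 3 of the 6 were found in 8 of 481 cells of the iBC graft (1.66%, interval 0.721 to 3.25), against 306 of 572 endogenous cells (53.5%, 49.3 to 57.6). In the primary BC recipient the count was 50 of 418 donor-derived cells (12.0%, 9.01 to 15.5), against 119 of 361 endogenous cells (33.0%, 28.1 to 38.1). Most cells of the iBC graft held exactly 1 of the 6 genes, at 65.3%, against 12.2% of endogenous cells, while the shares in the primary BC recipient were 24.2% and 27.1%.

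Muc5b, Tff2 and Dmbt1 were detected together in 236 of 572 thinned endogenous cells of the iBC recipient (41.3%), in 28 of 418 primary donor-derived cells (6.70%) and in 75 of 361 primary endogenous cells (20.8%). In the iBC graft only 11 of 481 thinned cells held Tff2 and 27 held Dmbt1, too few for their overlap, which was 0, to be read. Among cells with Muc5b, 7.09% of iBC donor-derived cells also held Dmbt1, against 75.8% of endogenous cells, and 42.7% of primary donor-derived cells did, against 47.6% of endogenous cells. Tff2 accompanied Muc5b in 2.89% against 68.0% of such cells in the iBC recipient, and in 28.0% against 49.6% in the primary BC recipient. In the iBC graft none of the 100 thinned secretory-gated cells without Muc5b held Tff2, Dmbt1 or Gp2. Muc5b was found in 381 of the 481 thinned cells, so most cells with these genes would hold it in any case. Whether the overlap went beyond that share was not tested. The count leaves out ciliated-gated cells of this graft, some of which also held Tff2.

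**Figure D3:**
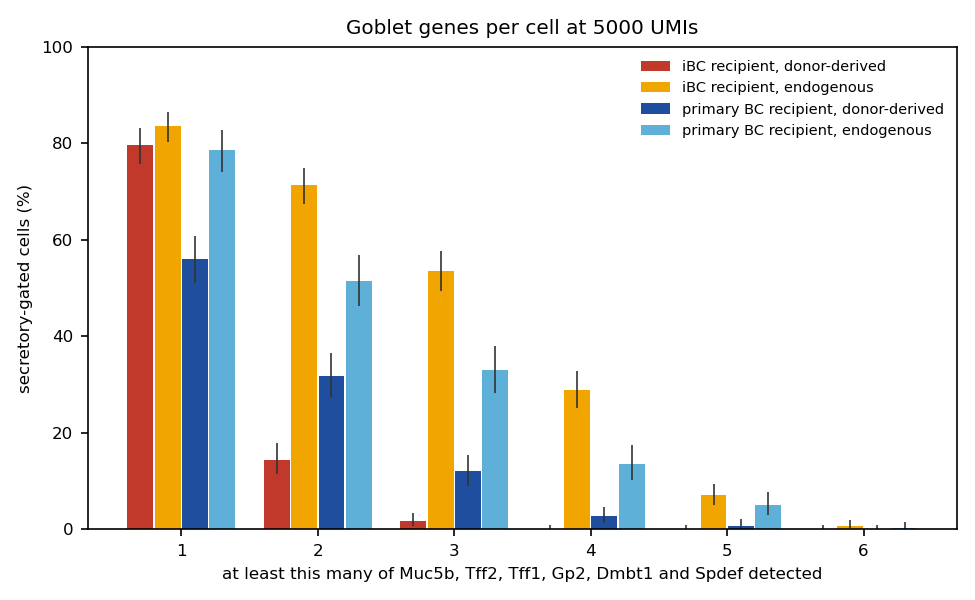
Share of secretory-gated cells, thinned to 5000 UMIs, in which at least the given number of the 6 genes Muc5b, Tff2, Tff1, Gp2, Dmbt1 and Spdef was detected, with exact 95% binomial intervals. At 3 or more genes the iBC graft is at 1.66% against 53.5% in endogenous cells, and the primary graft is at 12.0% against 33.0%.

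The gate on secretory markers held cells of unlike composition in the 4 libraries, which moved with these results. The 8 secretory markers summed to 284035 CPM in iBC donor-derived cells, against 395658 CPM in endogenous cells, and to 250700 CPM in primary donor-derived cells, against 281985 CPM in endogenous cells. Scgb3a1, a secretoglobin, was at 4889 against 86325 CPM in the iBC recipient and at 15800 against 39163 CPM in the primary BC recipient. Reg3g, a secreted antimicrobial lectin, was at 1.97 against 3634 CPM in the iBC recipient and at 26619 against 44388 CPM in the primary BC recipient. Bpifa1, a secreted airway protein, was at 228 against 33286 CPM with the iBC graft and, the other way round, at 123350 against 109034 CPM with the primary graft. Scgb3a2 was at 11105 against 34879 CPM and at 20964 against 19487 CPM, and Cyp2f2 at 7987 against 5883 CPM and at 8796 against 7046 CPM. Scgb1a1, the club cell secretoglobin, was at 256824 against 227341 CPM and at 51572 against 57400 CPM. The part of these markers in the results was not tested. Of the 5 gland markers, Dcpp1, Dcpp2, Dcpp3 and Lipf were at 0 in secretory-gated cells of every library, and the list summed through Lyz1 alone to 13.3, 49.9, 5.60 and 29.7 CPM in iBC donor-derived, iBC endogenous, primary donor-derived and primary endogenous cells.

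In ciliated-gated cells the membrane mucins Muc16 and Muc4 set the iBC graft apart. Muc16 was at 18.9 CPM (14.7 to 24.0) in iBC donor-derived cells, against 754 CPM (728 to 780) in endogenous cells, while it was at 402 CPM (379 to 425) in primary donor-derived cells, against 267 CPM (252 to 284) in endogenous cells. Muc4 was at 59.3 CPM (51.6 to 67.8) against 387 CPM (368 to 406) in the iBC recipient and at 204 CPM (189 to 221) against 172 CPM (160 to 186) in the primary BC recipient. The iBC graft was the lowest of the 4 libraries for both genes and its own endogenous cells were the highest.

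The difference was seen in most cells and not in a few. At 5000 UMIs a Muc16 UMI was found in 3.80% of 263 ciliated-gated iBC donor-derived cells (1.84 to 6.88), against 79.9% of 343 endogenous cells (75.2 to 84.0), and in 68.7% of 166 primary donor-derived cells (61.0 to 75.6), against 56.8% of 199 endogenous cells (49.6 to 63.8). For Muc4 the shares were 19.0% against 77.3% in the iBC recipient and 58.4% against 53.8% in the primary BC recipient. No thinned iBC donor-derived cell held 5 or more Muc16 UMIs, against 34.4% of endogenous cells. Unthinned, 5.99% of ciliated-gated cells of the iBC graft held Muc16, against 1.33% of its basal-gated cells, at median depths of 11869 and 9265 UMIs. The ciliated-gated sum was 5.03 times (3.22 to 8.07) the basal-gated sum. Part of it came from the 11 Muc5b-rich cells described below. Without them 5.08% of ciliated-gated cells held Muc16, at 11.6 CPM on 37 UMIs. In the endogenous libraries, which hold more Muc16, 0 of 23 and 2 of 67 immune-gated cells held it.

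**Figure D4:**
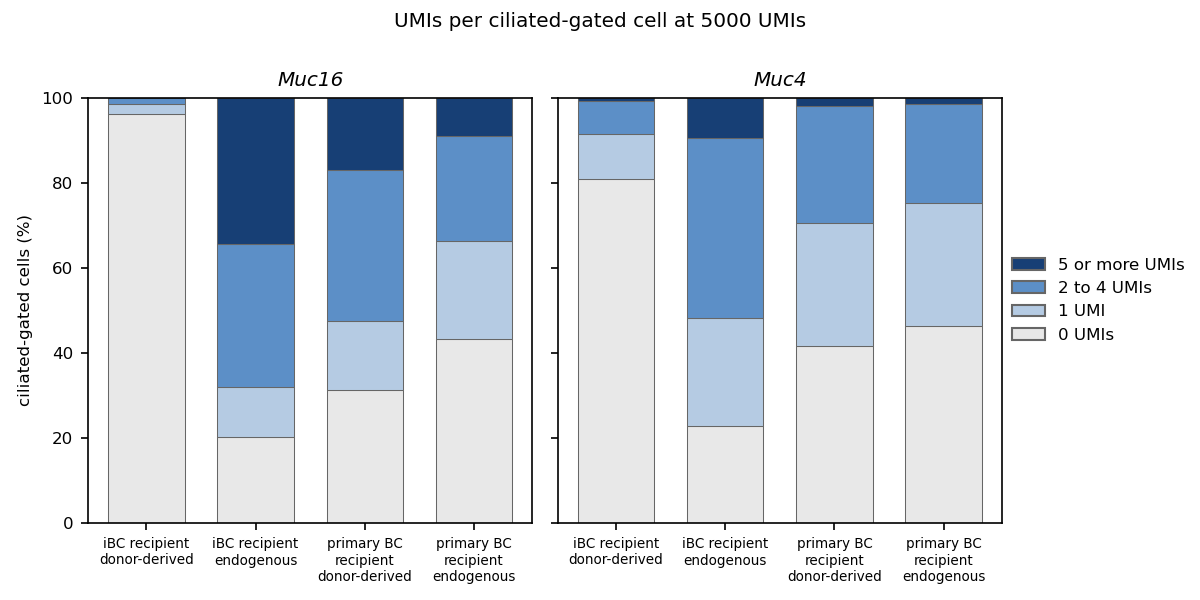
UMIs of Muc16 and of Muc4 per ciliated-gated cell thinned to 5000 UMIs, as stacked shares of cells with 0, 1, 2 to 4 and 5 or more. Cells with no Muc16 UMI make up 96.2% of the iBC graft against 20.1% of its endogenous cells, and 31.3% of the primary graft against 43.2% of its endogenous cells.

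Of the 5 genes that could be compared in ciliated-gated cells of the iBC recipient, 3 were lower in donor-derived cells, where 4.21% of 7153 genes were called lower. They were Muc16 (-4.99, the endogenous level being 39.8 times that of the graft, 31.3 to 51.4), Muc4 (-2.61, 6.52 times, 5.65 to 7.56) and Tff2 (-1.62). Tff2 rested on 14 UMIs in donor-derived cells, against 96 UMIs and 22.4 CPM in endogenous cells, and 1.14% of thinned donor-derived cells held it, against 11.1% of endogenous cells. Muc5b was the 1 gene called higher, at 2.21, against 2.95% of all genes, and Muc1 was at 0.74.

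The higher Muc5b rested on 11 of the 267 ciliated-gated cells of the iBC graft. These held 5 or more Muc5b UMIs each and 91.2% of all its UMIs in that class, with a median depth of 33522 UMIs, against 11772 in the other cells, and a median of 158150 CPM of Scgb1a1, against 839 CPM. Without them Muc5b was at 5.95 CPM in donor-derived cells, against 3.77 CPM in endogenous cells without their 1 such cell. Muc16 was then at 11.6 against 755 CPM, Muc4 at 61.4 against 387 CPM and Muc1 at 25.7 against 25.4 CPM, so the gaps of Muc16 and Muc4 were as large without these cells.

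In the primary BC recipient 3 genes could be compared in ciliated-gated cells and none was called, against 0.348% of 6900 genes higher and 0.058% lower. Muc16 was 1.50-fold (1.38 to 1.63) and Muc4 1.19-fold (1.06 to 1.32) higher in donor-derived cells, and Muc1 was at 35.6 against 30.4 CPM. Between the grafts Muc16 (-4.09) and Muc4 (-1.70) were lower in ciliated-gated cells of the iBC graft, 2 of 4 genes, where 5.62% of 7275 genes were called lower, and Muc5b (2.30) was higher, where 4.49% were. Between endogenous cells Muc16 (1.48) and Muc4 (1.14) were higher in the iBC recipient, 2 of 4 genes, where 2.35% of 7063 genes were called higher and 2.51% lower. The 9 ciliated markers summed to 14082 CPM in iBC donor-derived cells, against 12823 CPM in endogenous cells. In the primary BC recipient they summed to 13679 CPM in donor-derived cells, against 14135 CPM in endogenous cells. Cells were gated on these markers, so close sums do not show that the classes were alike otherwise. Of the secretory markers, Scgb1a1 was at 22589 against 1021 CPM and Reg3g at 10.6 against 6068 CPM in ciliated-gated cells of the iBC recipient.

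In basal-gated cells all 9 genes were low, and only Muc1 and Muc16 reached 20 CPM. Clusters 0, 8 and 11, which hold many of these cells, had no basal gate marker and 1 or 2 fibroblast or hillock markers among their 10 leading genes, so values are also given by cluster. Of the fibroblast markers, Col1a1 and Col1a2 were at 0 in basal-gated cells of all 4 libraries, and Col3a1 in all but the primary endogenous one. Outside that library Dcn alone made up the list, at 458 to 620 CPM. Muc1 was at 4.15 CPM (2.84 to 5.86) in iBC donor-derived cells, against 27.7 CPM (23.7 to 32.3) in endogenous cells, and at 48.9 CPM (45.0 to 53.0) in primary donor-derived cells, against 70.7 CPM (64.9 to 76.8) in endogenous cells. By cluster, Muc1 was at 2.93 CPM in cluster 1, which held 86.7% of the iBC donor-derived cells, against 32.2 and 21.8 CPM in clusters 4 and 11, which held 60.3% and 36.4% of the endogenous cells. The whole-class gap was 6.69 times (4.56 to 10.1).

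Muc16 in basal-gated cells followed the clusters. Over the class it was at 3.76 CPM in iBC donor-derived cells, against 11.7 CPM in endogenous cells, and at 49.0 CPM in primary donor-derived cells, against 29.98 CPM in endogenous cells. Within cluster 0 it was at 9.74 CPM in primary donor-derived cells, against 7.89 CPM in endogenous cells, within cluster 7 at 55.5 CPM against 95.5 CPM and within cluster 8 at 48.5 CPM against 30.2 CPM. The direction in the primary BC recipient was thus not the same in every cluster.

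Calls in basal-gated cells were few. Muc1, the 1 gene that could be compared in the iBC recipient, was called lower in donor-derived cells (-1.84), where 2.97% of 6526 genes were called lower and 3.66% higher. Neither Muc1 nor Muc16 was called in the primary BC recipient, where 0.112% of 6276 genes were higher and 0.526% lower. Both were lower in the iBC than in the primary graft (Muc16 -2.63 and Muc1 -2.56), where 4.8% of 6755 genes were called lower and 4.87% higher. Both were also lower in endogenous cells of the iBC recipient than in those of the primary BC recipient (-1.07 and -1.21), where 1.49% of 6367 genes were called lower and 1.24% higher.

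The other goblet and mucous cell genes showed which companions of Muc5b moved. In secretory-gated cells of the iBC recipient 12 of the 27 listed genes could be compared, and 6 were lower and 2 higher in donor-derived cells, where 3.19% of all genes were called lower and 5.97% higher. The median was -0.97 beside 0.32 over all genes. Clca1, a secreted goblet cell protein, was at 2.58 CPM in donor-derived cells, against 76.3 CPM in endogenous cells. Itln1, an intelectin, was at 1.11 against 35.5 CPM. The 2 higher genes were Agr3, a disulfide isomerase relative that airway ciliated cells also make, at 29.3 against 0.629 CPM, and Slc12a2, the basolateral sodium-potassium-chloride cotransporter, at 443 against 186 CPM.

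In secretory-gated cells of the primary BC recipient 11 genes of that list could be compared, and 2 were lower and none higher in donor-derived cells, where 0.521% of all genes were called lower and 0.27% higher. The median was -0.63 beside 0.07. Lyz1, lysozyme, was at 5.60 against 29.7 CPM, and Bpifb1, an abundant secretory protein that is also a gate marker, was at 993 against 2731 CPM. Clca1 was at 178 against 160 CPM and Itln1 at 101 against 158 CPM. Between the grafts Clca1 (-4.59), Itln1 (-4.12) and the mucin-folding isomerase Agr2 (-3.24, at 147 CPM in the iBC and 1436 CPM in the primary graft) were among the 4 of 11 compared genes called lower in the iBC graft, where 6.09% of all genes were called lower, and 2 were called higher, where 5.47% were.

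Of the other 12 mucins found, only Muc5ac, the second gel-forming airway mucin, reached 20 CPM in secretory-gated cells. It was at 100 CPM in iBC donor-derived cells, against 66.2 CPM in endogenous cells, and at 57.3 CPM in primary donor-derived cells, against 116 CPM in endogenous cells. It was not called in either recipient, and donor-derived cells were above endogenous cells in the iBC recipient, unlike for Muc5b.

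Enzymes that glycosylate mucins and genes that fold, pack and release them were read against the same shares of all genes. In secretory-gated cells of the iBC recipient (3.19% of all genes lower, 5.97% higher) 2 of 8 comparable O-glycosylation enzymes were lower and none higher (median -0.41), and in the primary BC recipient (0.521% lower, 0.27% higher) none of 10 was called (median -0.12). Of the folding, packaging and release genes other than Spdef, 2 of 14 were lower and 1 higher in the iBC graft (median 0.07), and none of 14 was called in the primary BC recipient (median 0.00). Ern2, the mucous cell form of the unfolded-protein sensor IRE1, was at 2.71 against 29.3 CPM in the iBC recipient, and Marcks, a kinase substrate of mucin granule release, was at 54.4 against 20.1 CPM. Ciliated-gated cells of the primary graft had 1 of 9 compared enzymes called, where 0.348% of all genes were called higher: Gcnt1, a core O-glycan branching enzyme, at 55.4 against 11.4 CPM.

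In ciliated-gated cells of the iBC recipient 10 genes of the goblet list could be compared, and 3 were lower and 2 higher in donor-derived cells, where 4.21% of all genes were called lower and 2.95% higher. Itln1 was at 9.74 against 104 CPM, Ltf, lactoferrin, at 50.1 against 291 CPM and Agr2 at 29.2 against 164 CPM. Slc12a2 was at 90.7 against 11.2 CPM and Bpifb1 at 23.9 against 7.94 CPM. Bpifb1 is a secretory gate marker, and its donor-derived value rests on 86 UMIs. The class includes the 11 Scgb1a1-rich cells that held most of its Muc5b. Bpifb1 was not read without them, so its call may rest on those cells.

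Across the 13 class sums with at least 50 cells, which share libraries and depth, the genes most like each of the 9 were found from the correlation of log2 CPM plus 5 over 9596 genes. Muc5b was most like Bpifb1 (r = 0.99), Wfdc1 and Muc5ac (both 0.98), and Tff2 was most like Dmbt1 (0.96), Fer1l6 (0.96) and Creb3l4 (0.95). Bpifb1 is among the markers that gate the secretory class, so its likeness to Muc5b is partly built in. Dmbt1 stood nearest to St8sia6 (0.99), Tmem213 (0.98) and Creb3l1 (0.97), Gp2 to Lrg1 (0.97), Dmbt1 and Creb3l1 (both 0.93), Tff1 to Gp2 (0.93), Tff2 (0.91) and Dmbt1 (0.90), and Spdef to Slc6a15, Tmem213 and Clca1 (all 0.95). Muc16 was most like Fam83e, BC030870 (both 0.95) and Pdzk1ip1 (0.94), Muc4 like Zfp750, Atp2c2 and BC030870 (all 0.97) and Muc1 like Acsl1 (0.97), Sidt1 (0.94) and Ccdc129 (0.92). Within the 9, Muc16 and Muc4 formed a pair (0.93), and Tff2, Tff1, Gp2, Dmbt1 and Spdef were at 0.79 to 0.96 with each other, while Muc4 was at 0.30 to 0.54 with those 5. These values describe 13 sums and are not a test.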

How the data were processed

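Single-cell RNA of 2 recipient tracheas was deposited as 4 matrices of UMI counts per gene and cell barcode, as whole numbers with no normalization in the deposited files. The submitters' processing notes name Cell Ranger, STARsolo, Seurat and GRCm38, with no versions or roles. The 9 genes and all gene lists were chosen with earlier results of these data known.

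Barcodes with fewer than 500 genes or more than 20% mitochondrial UMIs (160 of 6784) and called doublets (82, 1.21%, of which only 3 of 1876 barcodes in the primary donor-derived library, where the caller may not have worked and doublets may remain) were left out. Each cell was scored on marker lists holding none of the 9 genes and took the class with the highest score where that was at least 0.25 and led the next by 0.05; 352 cells lay just under that margin and 762 between it and 0.15. For each library the counts of a class were summed and divided by their total to give CPM. Intervals are exact at 95% (Poisson for CPM, conditional binomial for ratios, Clopper-Pearson for shares) and cover counting error only. Ratios called higher or lower used CPM plus 5, at least 2-fold and at least 20 CPM in 1 sum; plain folds are ratios of CPM. Where a sum was 0, its limit is 3 counts of the class total. Shares compared across depth used cells thinned to 5000 UMIs, leaving out shallower cells. Medians of all genes moved by over 0.1 (log2) in iBC basal-gated (0.13) and secretory-gated cells (0.32) and between endogenous secretory-gated cells (-0.24). Clusters (Leiden, 30 principal components, 2000 variable genes less any of the 9) are given by number. Beside the 9 genes, 12 of 15 other mucins, 27 of 27 goblet and mucous cell genes, 23 of 24 O-glycosylation enzymes and 23 of 24 folding, packaging and release genes were found. For each comparison and class these lists were pooled, and at most 3 called genes per direction with the widest ratios were picked from the pool. Called genes of a list can therefore go unnamed. The interval and call code was tested on simulated counts. Tools were Python 3.11.15, scanpy 1.11.5, scipy 1.17.1, edgeR 4.0.16 (TMM factors only) and matplotlib 3.10.9.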

Additional observations from a re-analysis of the deposited data

Results flagged for a closer look

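In 3 flagged cases the donor-derived cells of the 2 recipients stood on opposite sides of their endogenous cells. The list is not complete: Muc16 in basal-gated cells, described above, did so as well, at under 20 CPM in the iBC recipient. These differences between recipients were not tested, since each group is 1 library. Muc16 in ciliated-gated cells had a log2 ratio of donor-derived over endogenous of -4.99 with the iBC graft and 0.58 with the primary graft. Muc4 in ciliated-gated cells was at -2.61 and 0.24. Muc1 in secretory-gated cells was at 0.50 and -0.13, neither of them 2-fold, and the median of all genes was at 0.32 in the iBC recipient.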

How the results depend on the processing

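The 24 counts of called genes (3 classes, 4 comparisons, 2 directions) did not change by over 1.5 times with a pseudocount of 1 CPM, TMM scaling, a limit of 10% mitochondrial UMIs or cells of at least 5000 UMIs only. With a pseudocount of 20 CPM the count lower in basal-gated iBC donor-derived cells was 0 in place of 1 (Muc1 at -0.98), and between endogenous cells it was 0 in place of 2 lower in basal-gated and 1 in place of 3 higher in secretory-gated cells. With no minimum of 20 CPM, 2 in place of 1 gene were lower in basal-gated iBC donor-derived cells, and 1 in place of 0 in the primary BC recipient. A stricter gate gave 1 in place of 0 genes lower between endogenous secretory-gated cells, Muc5b (-1.04). Doublets kept gave 1 in place of 2 lower between endogenous basal-gated cells.

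With classes from Leiden clusters, ciliated cells had 0 in place of 1 gene higher in the iBC recipient and between grafts, 2 in place of 0 genes were lower in basal and in ciliated cells of the primary graft, and endogenous cells had 1 in place of 2 lower in basal, 1 in place of 3 higher and 1 in place of 0 lower in secretory, and 1 in place of 0 lower in ciliated cells. A secretory gate from Scgb1a1, Scgb3a2 and Cyp2f2 alone, chosen like the 5000 UMI limit after seeing the data, gave 0 in place of 1 lower in iBC basal-gated cells (Muc1 was still at -1.43 but under 20 CPM in both), 0 in place of 1 higher in ciliated-gated cells of the iBC recipient and between grafts, and 1 in place of 0 lower in primary ciliated-gated and endogenous secretory-gated cells. Under it Muc5b in ciliated-gated cells reversed to -0.22 (iBC donor-derived over endogenous) and -0.18 (iBC over primary graft). The causes were not tested.

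The secretory log2 ratios in the iBC recipient ranged from -7.99 to -6.15 for Tff2, -6.30 to -5.38 for Dmbt1 and -3.72 to -2.89 for Gp2, and in ciliated-gated cells from -5.49 to -4.31 for Muc16 and -2.70 to -2.36 for Muc4. In the primary BC recipient Muc5b ranged from -1.16 to -0.94 and Dmbt1 from -1.12 to -0.88, on both sides of 2-fold. No paired analysis was possible because each group has 1 library, and for the same reason no replicate could be left out. At this depth Tff1, Spdef and the donor-derived iBC Tff2 rest on few UMIs per cell.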

Other observations

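The small classes held some of the highest membrane mucin levels. In the 9 donor-derived ionocyte-gated cells of the primary BC recipient Muc4 was at 479 CPM, with UMIs in all 9, against 416 CPM in 9 of 10 endogenous cells. Muc1 was at 240 CPM in 8 of the 9 donor-derived cells, against 400 CPM in all 10 endogenous cells, while no UMI of Muc16 was found in either.

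In the 15 donor-derived hillock-gated cells of the primary BC recipient Muc16 was at 319 CPM, against 206 CPM in 10 endogenous cells, and Muc4 at 314 against 152 CPM. Dmbt1, Gp2 and Spdef were at 0 UMIs in both. The 25 donor-derived microfold-gated cells of the iBC recipient held no Gp2 UMI, which allows up to 6.36 CPM, and 14 of them held Muc16 (288 CPM). The 5 endogenous microfold-gated cells held 53 Gp2 UMIs (532 CPM) in 3 cells.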
